A study of Mus musculus with 12 samples.

Results

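The genes described here build the wall and the barrier of the small vessels of the brain: the endothelial cells that line them, and the pericytes and smooth muscle cells wrapped around the lining. They were taken as a list of 41 gene symbols and looked up by name in the deposited results. Of the 41, 39 were found among the 17564 genes measured in both genotypes, and Tagln and the symbol Anpt1 were not among them. The gene Angpt1, of near spelling, was measured and is given below with a pathway list. RNA-seq was run on the ventral hippocampus (vHPC) of male mice on a C57BL/6 background. The groups were WT mice given vehicle (WT VEH), WT mice given corticosterone (WT CORT), mice heterozygous for the Met allele of brain-derived neurotrophic factor given vehicle (BDNF het-Met VEH) and such mice given corticosterone (BDNF het-Met CORT). All groups drank 1% ethanol for 6 weeks from 2 months of age, and in the CORT groups it carried corticosterone, the main glucocorticoid of rodents, at 25 mg/l. Each group had 3 libraries, and each library held RNA pooled from 2 animals, so differences between single mice are not seen. The question addressed was how oral CORT moved vessel and barrier genes in each genotype.

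In the brain, endothelial cells are sealed to each other by tight junctions and carry few vesicles, so that most solutes enter the tissue only through carriers in the cell membrane. This barrier state is kept up by Wnt signals from the surrounding tissue and by pericytes, which are recruited and held through PDGF and Notch signals. Growth, rest and sprouting of the vessels are set by the VEGF and angiopoietin ligands and their receptor kinases. Endothelial cells carry glucocorticoid receptors, and glucocorticoids are known to act on junction genes in cultured brain endothelium.

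The values are those of a limma-voom fit, a linear model of log2 CPM (read counts scaled to library size) with a weight for each observation, which the authors deposited for all genes. A log2 fold change below 0 means lower under CORT. The files used here hold 1 fitted difference with its standard error (SE) per gene and genotype and no value for any single library, so the spread between libraries enters only through the SE, and overlap between groups cannot be shown. The direction of the fold changes rests on the names given to the comparisons. Fkbp5, a co-chaperone gene known to be turned on by the glucocorticoid receptor, was higher under CORT on this scale, with 0.21 ± 0.09 (SE) for WT and 0.43 ± 0.08 for BDNF het-Met. It is 1 gene of a list of 15 glucocorticoid response genes given below. In that list the average over both genotypes was above 0 for 8 genes and below 0 for 7. Throughout, a gene is called lower or higher when its uncorrected two-sided limma p was below 0.05, the threshold of the study, and adjusted p-values are printed beside the values. None of the 39 genes had a Benjamini-Hochberg adjusted p below 0.05 for the CORT effect in WT, in BDNF het-Met or on average, for the difference between genotypes or for the joint test of the 4 groups.

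The listed genes were measured at moderate levels in this bulk tissue. Per length of exon, the median level of the 39 genes was 2.37 on the log2 CPM per kb scale, which is the 57.4th percentile of all genes, whereas the median of 8 neuronal markers was 7.42 and that of 8 astrocyte markers 6.08. Vtn, which encodes vitronectin and in brain marks pericytes, had a level of 5.06, the pericyte gene Rgs5 had 4.92, and the endothelial membrane protein gene Itm2a had 4.81. Slc2a1, the glucose carrier of the barrier, stood at 4.41 and the tight junction gene Cldn5 at 4.31. At the low end, Sox17, an endothelial transcription factor, had a level of -0.20, and Angpt2, an angiopoietin of sprouting endothelium, lay below it. The endothelial markers Pecam1 (1.77) and Cdh5 (1.94) and the mural markers Pdgfrb (2.37) and Abcc9 (0.36) were all detected, so both cell layers of the vessel wall are represented. Cspg5 stands apart in the list: it encodes neuroglycan C, a proteoglycan known mainly from neurons and glia, and it is not a defining gene of pericytes.

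Under CORT, 12 of the 39 vessel and barrier genes were lower when the CORT effect was averaged over both genotypes, and 0 were higher. Across all genes, 6.18% were called lower and 7.17% higher in the same comparison. These shares stand beside every count of average calls given below by role or list. The genes called lower were the endothelial genes Itm2a, Sox17, Tie1, Tek, Erg and Emcn, the carriers Slc2a1, Slc7a5 and Slco1a4, the mural genes Notch3 and Rgs5, and Cspg5. Their average log2 fold changes ran from -0.40 for Itm2a, a change of -24.1%, to -0.12 for Slc2a1, a change of -7.92%. With a fold change above 1.3 as well, 1 of the 12 was left, Itm2a (1.61% of all genes lower by that rule). The median over the 39 genes was -0.11, against -0.0049 over all genes. A value below 0 was found for 32 of 39 (82.1%), against 52.2% of all genes. Of the genes above 0, Cldn5 (0.23), Vwf (0.24), Kdr (0.15) and Flt1 (0.10) had the larger values, and none of them passed the threshold. After adjustment over all genes, 0.074% of genes passed in the average comparison and none of the listed ones did, with Notch3 closest at an adjusted p of 0.111 from limma values.

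In WT mice 3 of the 39 genes were lower under CORT (Sox17, Itm2a and Rgs5) and 0 were higher, where 1.57% of all genes were lower and 2.25% higher. In BDNF het-Met mice 5 were lower (Notch3, Cspg5, Itm2a, Slc2a1 and Slc7a5) and 0 were higher, where 6.64% of all genes were lower and 6.55% higher. With the study's further demand of a fold change above 1.3, the WT count fell to 1, Sox17 (0.672% of all genes lower), and the BDNF het-Met count to 3, Itm2a, Notch3 and Cspg5 (2.52% of all genes lower). Itm2a was the gene called in both genotypes. With ordinary in place of moderated errors the WT calls of Sox17, Itm2a and Rgs5 were all lost and Erg was the 1 gene called. The sign was the same in both genotypes for 30 of the 39 genes, with 25 below 0 in both (64.1%, against 32.7% of all genes), 5 above 0 in both and 9 of opposite sign. Across the 39 genes the WT and BDNF het-Met values, which come from different libraries of 1 joint fit, had a Pearson correlation of 0.646 and a Spearman correlation of 0.534, and across all genes 0.298 and 0.328. These correlations are over genes, which are not independent replicates. The median SE of the 39 genes was 0.123 for WT and 0.109 for BDNF het-Met, above the medians over all genes of 0.102 and 0.0898. In bulk tissue, fewer vessel cells and less RNA of these genes per vessel cell cannot be told apart.

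**Figure D1:**
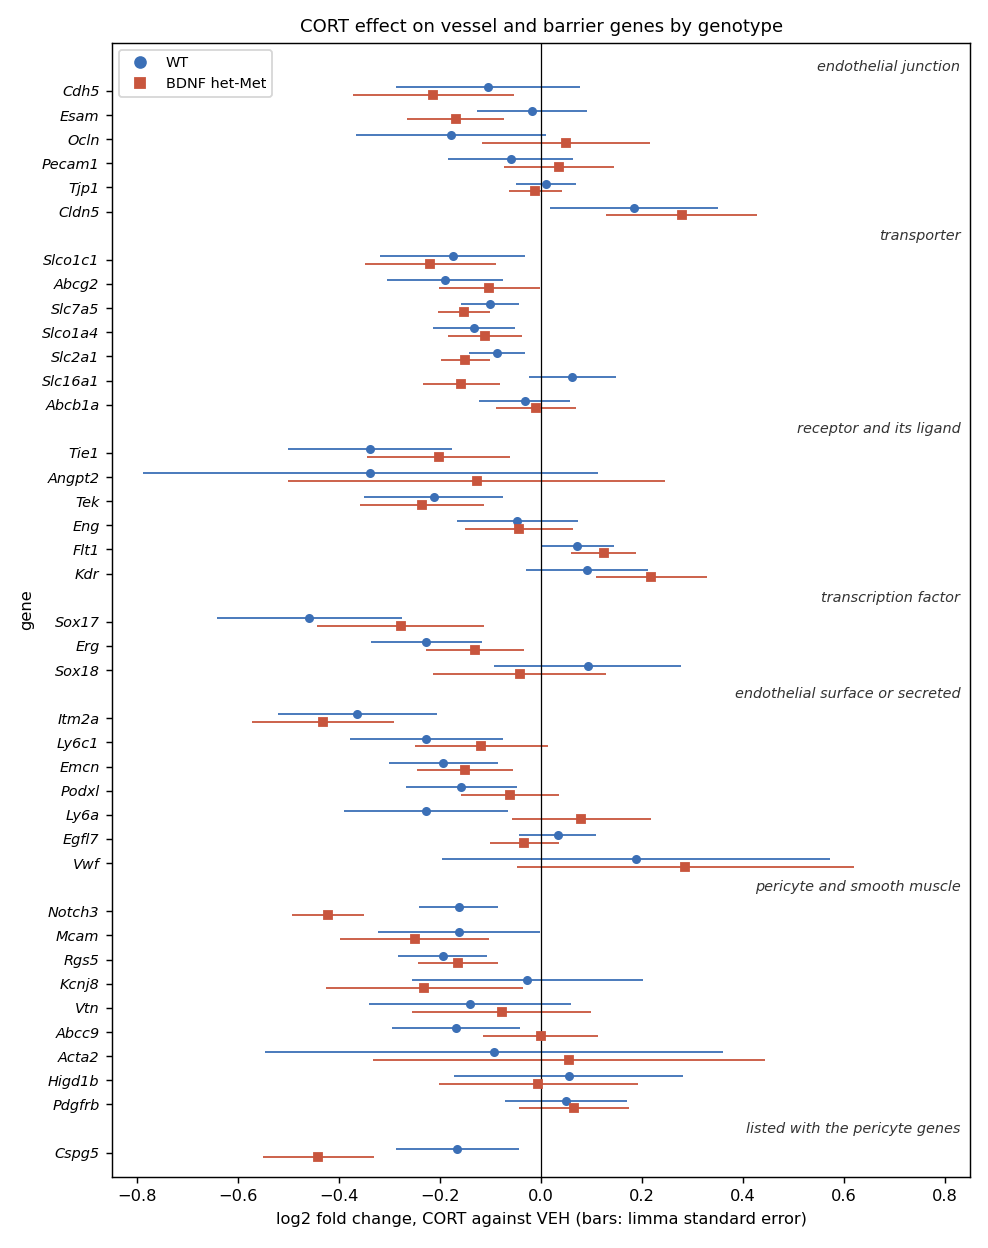
Log2 fold change under CORT against VEH (x axis) for each of the 39 genes (y axis, grouped by role), with WT as circles, BDNF het-Met as squares and bars of 1 limma standard error. Most genes lie left of 0 in both genotypes, Itm2a, Sox17, Notch3 and Cspg5 each reach -0.42 or below in 1 genotype, and Cldn5, Kdr, Flt1 and Vwf lie right of 0 in both.

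The plot of the CORT effect by genotype shows the genes by role, and the tight junction and adherens junction genes sit in it with no gene called. Tjp1 (ZO-1), the scaffold under the junction, had the highest mean expression of the 6 and a value close to 0 in WT (0.01 ± 0.06, SE) and in BDNF het-Met (-0.01 ± 0.05). Its average of -0.0012 had a 95% interval from -0.089 to 0.0865, the narrowest of the junction genes. Cldn5, the main claudin of the barrier (chr16:18776847-18778262, plus strand, GRCm38), had 0.18 ± 0.17 and 0.28 ± 0.15, with an average of 0.23 (95% interval -0.0155 to 0.476, adjusted p = 0.406). It thus lay on the other side of 0 from most of the list without passing the threshold. Pecam1, an adhesion molecule of the cell borders, had -0.06 ± 0.12 and 0.04 ± 0.11. Ocln (occludin) had -0.18 ± 0.19 and 0.05 ± 0.17, Cdh5 (VE-cadherin) -0.11 ± 0.18 and -0.21 ± 0.16, and Esam -0.02 ± 0.11 and -0.17 ± 0.10. The SE of Ocln, Cdh5 and Cldn5 was over 2 times that of Tjp1, so changes of the size seen in Slc2a1 were not detectable in them.

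The partners of these proteins, from a separate list of 15 tight junction genes, had a median average effect of -0.10. Of them, 3 were called lower and 0 higher (6.18% and 7.17% of all genes), and 14 of 15 lay below 0 (52.2% of all genes). Jam2, a junctional adhesion molecule of endothelium, was lower in both genotypes (-0.18 ± 0.08 and -0.15 ± 0.07), with an adjusted p = 0.239 for its average of -0.16. Cldn10, a claudin that is also made by astrocytes, was lower on average by -0.16 (adjusted p = 0.248).

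The 7 carriers and pumps of the barrier were all below 0 on average, and 3 of them were called lower. For these 7 too, bulk values do not separate vessel cells from other sources. Slc2a1 (GLUT1; chr4:119108711-119137983, plus strand), which brings glucose into the brain, had -0.09 ± 0.06 in WT, which was not called, and -0.15 ± 0.05 in BDNF het-Met, which was. Its average was -0.12 (95% interval -0.200 to -0.038, adjusted p = 0.234). Slc7a5 (LAT1; chr8:121881150-121907694, minus strand), a carrier of large neutral amino acids, followed the same pattern, with -0.10 ± 0.06 and -0.15 ± 0.05 and an average of -0.13 (95% interval -0.212 to -0.043, adjusted p = 0.228). These averages are changes of -7.92% and -8.45%, found in strongly expressed genes with a small SE. Slco1a4, an organic anion transporter of endothelium, had -0.13 ± 0.08 and -0.11 ± 0.07, neither called, and an average of -0.12 that was called (95% interval -0.243 to -0.0025, adjusted p = 0.37) but was lost with ordinary errors and with an assumed error correlation of 0.25. Slco1c1, the thyroxine carrier of the barrier, had -0.18 ± 0.14 and -0.22 ± 0.13 with an average of -0.20 (95% interval -0.412 to 0.0158). The efflux pump genes differed in size: Abcg2 had an average of -0.15 (95% interval -0.315 to 0.0208) and Abcb1a (P-glycoprotein) one of -0.02 (95% interval -0.154 to 0.11). Abcb1a shares 456 bases at 99.8% identity with the annotated transcript Gm42686, and 177 bases at 98.9% with its neighbour Abcb1b. Reads of these genes may thus be split or dropped in counting. Slc16a1 (MCT1), the monocarboxylate carrier, had 0.06 ± 0.09 in WT and -0.16 ± 0.08 in BDNF het-Met, a difference of -0.22 (95% interval -0.473 to 0.0337). Slc3a2, the heavy chain that pairs with LAT1, belongs to the wider transport list and was lower on average by -0.11 (adjusted p = 0.25).

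The wider list of 21 barrier transport and uptake genes moved in both directions, with a median of -0.01. On average 4 were called lower and 5 higher (6.18% and 7.17% of all genes). Mfsd2a, the carrier of lysolipids with docosahexaenoic acid that also holds down vesicle traffic in barrier endothelium, was higher under CORT, by 0.37 ± 0.08 in WT mice and by 0.49 ± 0.07 in BDNF het-Met mice. Its average of 0.43 had an adjusted p of 0.0431 by the combined limma values, which puts it among the 13 genes of the whole table that passed. Tfrc, the transferrin receptor, was higher by 0.17 ± 0.07 and 0.37 ± 0.06 (average 0.27, adjusted p = 0.0756 from the limma values). Slc7a1, a carrier of basic amino acids, was higher by 0.13 ± 0.05 and 0.17 ± 0.04 (average 0.15, adjusted p = 0.194), and Insr and Lrp1 were higher on average by 0.13 and 0.24. Called lower on average were Slc3a2, Slc38a5, Slco2b1 and Cav1, the last a gene of endothelial caveolae (-0.29, adjusted p = 0.259). Mfsd2a and Tfrc are also made by cells outside the vessels, and these bulk values do not separate the sources.

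Of the 6 receptor and ligand genes of vessel growth, 2 were called lower on average and 0 higher. Tie1 (chr4:118471191-118490061, minus strand) and Tek (TIE2; chr4:94739289-94874976, plus strand), the receptors of the angiopoietin system, were both lower on average. Tie1 had -0.34 ± 0.16 in WT and -0.20 ± 0.14 in BDNF het-Met, with an average of -0.27 (95% interval -0.508 to -0.0341, adjusted p = 0.322). Tek had -0.21 ± 0.14 and -0.24 ± 0.12, with an average of -0.22 (95% interval -0.429 to -0.0209, adjusted p = 0.337). Neither was called within a genotype, so these calls rest on the pooled estimate. Both were lost with ordinary in place of moderated errors, and Tek also with an assumed error correlation of 0.25 between the genotypes. The VEGF receptor genes Flt1 and Kdr lay above 0 in both genotypes and were not called: Flt1, with the highest mean expression of the group, had 0.07 ± 0.07 and 0.12 ± 0.06 (average 0.10, 95% interval -0.0098 to 0.205), and Kdr had 0.09 ± 0.12 and 0.22 ± 0.11 (average 0.15, 95% interval -0.0259 to 0.334). Eng, a co-receptor for TGF-beta ligands, had -0.05 ± 0.12 and -0.04 ± 0.11. Angpt2, the ligand that opposes Tek signalling, had -0.34 ± 0.45 and -0.13 ± 0.37, and with errors this wide a change of the size seen in Tek was not detectable.

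Of 18 further genes of VEGF, angiopoietin and TGF-beta signalling, 6 were called lower and 2 higher on average (median -0.08). Across all genes these shares were 6.18% and 7.17%. Id1 and Id3, transcriptional regulators known as direct targets of BMP signals, were lower in both genotypes: Id1 by -0.25 ± 0.09 and -0.35 ± 0.08 (adjusted p = 0.171 for its average), and Id3 by -0.31 ± 0.13 and -0.27 ± 0.11 (adjusted p = 0.22). Acvrl1, an endothelial receptor for BMP ligands, and Smad1, a mediator of the same signals, were lower on average by -0.17 and -0.14, and Tgfb1 by -0.38 and Vegfb by -0.11. Nrp1 (0.23) and Bmpr2 (0.12) were higher. Flt4, a further VEGF receptor, had -0.10 ± 0.17 in WT and 0.17 ± 0.15 in BDNF het-Met. Among 14 genes of Wnt signalling at the barrier, 4 were called lower and 0 higher (median -0.10). The 4 were the ligand Ndp (-0.24), the transcription factors Tcf7 (-0.33) and Sox7 (-0.40), and Apcdd1 (-0.21), a Wnt target and inhibitor made by brain endothelium. None of the 14 passed in WT alone, and in BDNF het-Met Ndp, Apcdd1, Sox7 and Axin2 were called lower (Axin2 -0.14 ± 0.06), while Tcf7 was not. Of all genes, 1.57% were called lower and 2.25% higher in WT, and 6.64% and 6.55% in BDNF het-Met.

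Among the endothelial transcription factors, Sox17 and Erg were lower on average and Sox18 was near 0. Sox17 (chr1:4490931-4497354, minus strand), a factor of arterial endothelium, was the gene with the largest WT decrease of the list, -0.46 ± 0.18, and had -0.28 ± 0.17 in BDNF het-Met, which was not called. Its average was -0.37 (95% interval -0.641 to -0.0975, adjusted p = 0.261), a change of -22.6% in a weakly expressed gene. The annotated transcript Gm37587 shares a stretch of 804 identical bases with Sox17, so how its reads were assigned could move this value. Erg (chr16:95359169-95586593, minus strand), an ETS-family factor that maintains endothelial identity, had -0.23 ± 0.11 and -0.13 ± 0.10, neither called, with an average of -0.18 (95% interval -0.340 to -0.0186, adjusted p = 0.331), a call that was lost when values were centred by expression level or with an error correlation of 0.25. Sox18 had 0.09 ± 0.19 and -0.04 ± 0.17, with an average of 0.02 (95% interval -0.253 to 0.303).

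Itm2a (chrX:107397099-107403376, minus strand), an integral membrane protein gene strongly expressed in brain endothelium, was lower in both genotypes. It had -0.36 ± 0.16 in WT and -0.43 ± 0.14 in BDNF het-Met, with a difference of -0.07 whose 95% interval ran from -0.532 to 0.396. Its average was -0.40 (95% interval -0.630 to -0.166, adjusted p = 0.208). Emcn (endomucin; chr3:137341067-137432185, plus strand), a mucin-like surface protein of capillary and venous endothelium, had -0.19 ± 0.11 and -0.15 ± 0.10 and was called lower on average and in neither genotype alone (-0.17, adjusted p = 0.345), a call lost under the same alternatives as that of Erg. Podxl, a second surface sialomucin, had -0.16 ± 0.11 and -0.06 ± 0.10. Vwf, which encodes von Willebrand factor, had 0.19 ± 0.38 and 0.29 ± 0.33, and its SE was at the 99.4th percentile of genes of similar expression. Egfl7, an endothelial secreted factor, had 0.03 ± 0.08 and -0.03 ± 0.07. The Ly6 surface genes had wide errors: Ly6c1 was -0.23 ± 0.15 and -0.12 ± 0.13, and Ly6a was -0.23 ± 0.16 and 0.08 ± 0.14. Ly6c1 shares 636 bases at 98.3% identity with its neighbour Ly6c2, so its reads may be split or dropped in counting.

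Of the mural genes, Notch3 and Rgs5 were lower on average and the other 7 were not called. Notch3 (chr17:32120820-32166852, minus strand), the Notch receptor of pericytes and smooth muscle, had -0.16 ± 0.08 in WT, which was not called, and -0.42 ± 0.07 in BDNF het-Met (adjusted p = 0.143). Its average was -0.29 (95% interval -0.409 to -0.176, adjusted p = 0.111). The difference between the genotypes was -0.26 (95% interval -0.491 to -0.0255), and Notch3 was the 1 listed gene called for it, where 2.41% of all genes were called. After adjustment over all genes that difference did not pass (adjusted p = 0.9999). The annotated transcript Gm17276 shares 333 identical bases with Notch3. Rgs5 (chr1:169655501-169695813, plus strand), a regulator of G protein signalling that marks pericytes, had -0.20 ± 0.09 in WT, which was called, and -0.17 ± 0.08 in BDNF het-Met, which was not, and an average of -0.18 (95% interval -0.310 to -0.0505, adjusted p = 0.255). The other genes gave values of either sign with wider errors. Vtn had -0.14 ± 0.20 and -0.08 ± 0.18, and Pdgfrb, the PDGF receptor of pericytes, had 0.05 ± 0.12 and 0.07 ± 0.11. The channel genes Kcnj8 and Abcc9, whose products form a potassium channel of pericytes, had -0.13 and -0.09 on average. Mcam had -0.16 ± 0.16 and -0.25 ± 0.15, Higd1b 0.05 ± 0.23 and -0.01 ± 0.20, and the smooth muscle actin gene Acta2 -0.09 ± 0.45 and 0.05 ± 0.39. Cspg5 (chr9:110243783-110262576, plus strand) had -0.17 ± 0.12 in WT and -0.44 ± 0.11 in BDNF het-Met (adjusted p = 0.254), with a difference of -0.27 (95% interval -0.637 to 0.0867), and without it 11 of 38 genes were lower on average.

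Among 20 further pericyte and smooth muscle genes, 3 were called lower and 1 higher on average (median -0.13), where 6.18% and 7.17% of all genes were. P2ry14, a receptor for UDP sugars, was lower by -0.59 ± 0.14 and -0.44 ± 0.12 (adjusted p = 0.117 for its average), and Art3, a gene of the ADP-ribosyltransferase family, by -0.53 ± 0.22 and -0.46 ± 0.19 (adjusted p = 0.22). Both are known as markers of brain pericytes, as is Atp13a5, which was lower on average by -0.21 (adjusted p = 0.341). Cspg4 (NG2), which marks pericytes and also oligodendrocyte precursors, was higher on average by 0.08 (adjusted p = 0.335). Ednrb, the endothelin B receptor, from a list of 13 vessel tone and adhesion genes, was lower in both genotypes (-0.38 ± 0.14 and -0.61 ± 0.13), with an adjusted p = 0.143 for its average of -0.50. Vcam1 (-0.27) and Selplg (-0.20) were also lower on average, and 0 of the 13 were higher. For Ednrb, Vcam1 and Selplg, and for Tgfb1 above, these bulk values do not separate vessel cells from other sources. Of 14 genes of Notch and PDGF signalling, 1 was called lower on average, Ephb4 (-0.22), a receptor of venous endothelium, and 0 were higher. The median of these 14, which include the receptor genes Notch1 and Notch4 with Notch ligands and target genes but not Notch3, was 0.02.

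**Figure D2:**
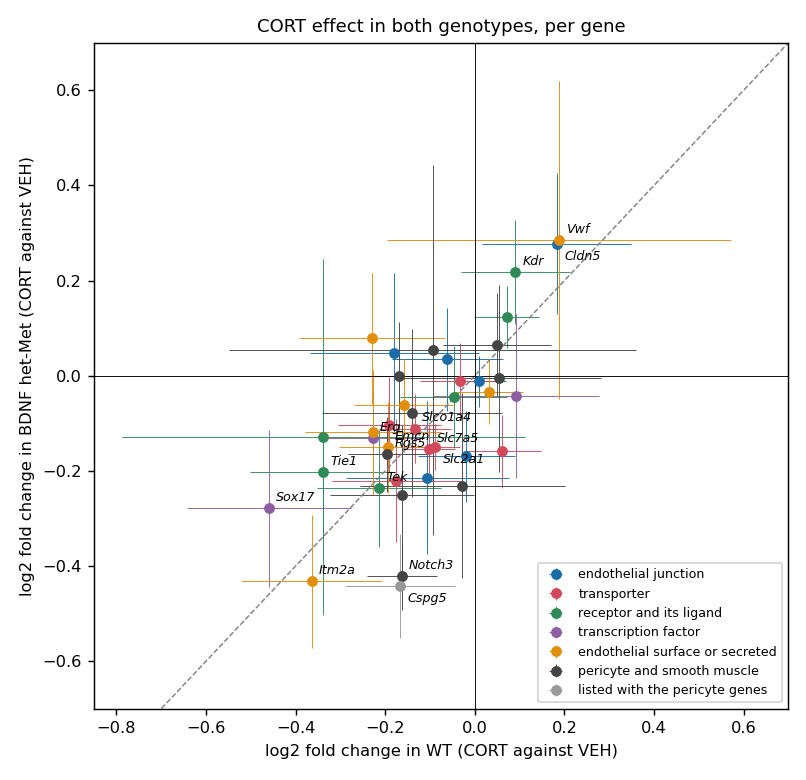
Log2 fold change under CORT in WT (x axis) against that in BDNF het-Met (y axis), 1 point per gene coloured by role, with bars of 1 limma standard error and a dashed line of equal change. Points lie mostly in the lower left, and Notch3 and Cspg5 lie below the line, at -0.16 and -0.17 in WT against -0.42 and -0.44 in BDNF het-Met.

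In the plot of one genotype against the other, the difference between the genotypes (BDNF het-Met minus WT) ran from -0.27 for Cspg5 to 0.31 for Ly6a. Outside Notch3, the 95% interval of the difference between genotypes spanned 0 for every listed gene. These intervals were wide in the junction and smooth muscle genes (for Ocln -0.326 to 0.782, for Acta2 -1.17 to 1.46) and narrow in Tjp1 (-0.197 to 0.154) and Slc2a1 (-0.224 to 0.0998), so that like effects in both genotypes are not shown by the lack of a call. The joint test of any difference among the 4 groups called 6 of the 39 genes (Notch3, Slc2a1, Cspg5, Itm2a, Slc7a5 and Sox17), where 7.43% of all genes were called. A remainder was taken as the joint F times its numerator degrees of freedom, less the squared moderated t of both CORT comparisons. It holds the difference between genotypes. For Slc2a1 this remainder was 10.6, the 99.6th percentile of all genes, against a median of 0.433. It was 5.92 for Notch3, the 97.9th percentile. The remainder is an approximation, since it came out below 0 for 610 genes (lowest -0.118). It carries no sign and was not tested, so whether Slc2a1 differed between the genotypes, and which way, cannot be read from it.

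**Figure D3:**
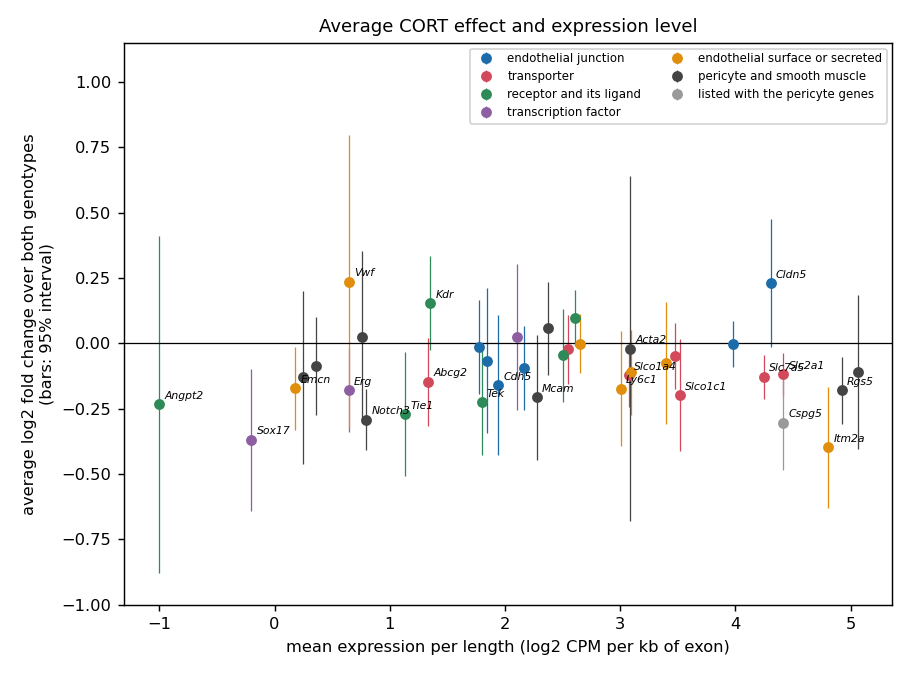
Mean expression per exon length (x axis, log2 CPM per kb) against the average log2 fold change over both genotypes (y axis), with 95% intervals and colours by role. The genes called lower span the range from Sox17 at -0.20 to Rgs5 at 4.92, and the widest intervals belong to Angpt2, Vwf and Acta2.

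In the plot of level against effect, the genes called lower lie at low and at high levels. Over all genes, the median log2 fold change rose with mean expression. From the lowest to the highest of 5 expression classes it ran from -0.028 to 0.019 in WT and from -0.063 to 0.035 in BDNF het-Met. Centring by these classes removed the calls of Erg and Emcn. Sox17, Emcn, Erg and Notch3 were called at levels between -0.20 and 0.80, and Rgs5, Itm2a, Cspg5, Slc2a1 and Slc7a5 at levels between 4.25 and 4.92. The SE of the average was 0.0368 for Slc2a1 and 0.293 for Angpt2, but it did not simply follow level, being 0.299 for the well expressed Acta2 and 0.0528 for the weakly expressed Notch3.

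The regions upstream of 4 of the genes called lower are shown because they are the called genes with a single start site in RefSeq whose 250 upstream bases lie wholly outside the GENCODE gene. They are reference sequence of GRCm38.p6, written 5′ to 3′ on the strand of the gene and ending at the base before the start site. Capitals mark matches, on either strand, to AGAACA, a hexamer recognised by the glucocorticoid receptor, to AGGAAG, a core bound by ETS factors such as Erg, or to GTGGGAA, bound by RBPJ, the DNA-binding partner of Notch; none of these motifs overlaps another in the 4 regions.
Notch3 (chr17:32166891-32167140, minus strand): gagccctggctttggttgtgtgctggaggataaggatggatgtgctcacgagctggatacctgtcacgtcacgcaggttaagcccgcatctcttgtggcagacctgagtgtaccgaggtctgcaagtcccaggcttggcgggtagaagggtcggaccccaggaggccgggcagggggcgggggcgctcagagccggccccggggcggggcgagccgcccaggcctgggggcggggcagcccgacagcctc
Rgs5 (chr1:169655251-169655500, plus strand): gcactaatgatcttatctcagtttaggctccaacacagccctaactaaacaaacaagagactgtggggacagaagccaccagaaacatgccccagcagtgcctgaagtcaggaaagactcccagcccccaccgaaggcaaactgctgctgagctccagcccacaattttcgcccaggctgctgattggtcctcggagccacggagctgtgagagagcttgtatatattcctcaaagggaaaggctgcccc
Slco1a4 (chr6:141856221-141856470, minus strand): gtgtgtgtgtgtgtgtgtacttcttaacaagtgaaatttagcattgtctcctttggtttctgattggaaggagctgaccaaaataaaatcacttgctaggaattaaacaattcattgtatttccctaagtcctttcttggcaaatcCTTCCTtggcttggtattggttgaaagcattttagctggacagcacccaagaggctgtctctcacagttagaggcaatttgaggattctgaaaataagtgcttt
Tek (chr4:94739039-94739288, plus strand): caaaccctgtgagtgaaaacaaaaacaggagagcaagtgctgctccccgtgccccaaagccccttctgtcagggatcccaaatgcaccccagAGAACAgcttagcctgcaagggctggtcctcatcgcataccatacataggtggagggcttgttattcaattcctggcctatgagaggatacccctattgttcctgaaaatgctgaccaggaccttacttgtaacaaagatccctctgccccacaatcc

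The 4 regions differ in base composition. That of Notch3 had a GC content of 68.8% and 17 CpG dinucleotides, that of Rgs5 53.6% and 4, that of Tek 51.2% and 2, and that of Slco1a4 39.2% and 0. Tek held 1 AGAACA, 158 bases before the start site, and Slco1a4 held 1 AGGAAG on the opposite strand, 104 bases before it, while Notch3 and Rgs5 held none of these letters in the window. Of the listed genes, 26 had an upstream region in the table. AGGAAG was found in 12 of the 26, AGAACA in 4 and GTGGGAA in 2 (Kdr and Tie1). Over all 27025 genes with such a region the shares were 32.3%, 18.2% and 6.18%. Tie1 thus held both an ETS core and an RBPJ match, but 212 of the 250 bases of its region lie inside the GENCODE gene. AGAACA was found in Acta2, Egfl7, Tek and Vtn, of which Tek was called. A match is a match of letters and does not show binding.

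Markers of other cell types and fluids that the dissected tissue could hold were looked up as well. For their counts too, the shares over all genes were 6.18% lower and 7.17% higher on average. All 5 blood genes (haemoglobins and Alas2) were above 0 in both genotypes, with medians of 0.58 for WT and 0.64 for BDNF het-Met, and 3 were called higher on average. All 8 microglia markers were below 0 in both, with medians of -0.19 and -0.43 and 5 called lower on average. The 12 choroid plexus markers had medians of -1.09 for WT and 0.17 for BDNF het-Met with median SEs of 1.44 and 1.33, and 0 were called. The 8 perivascular fibroblast and meningeal markers had medians of -0.25 and -0.11, and the 5 perivascular macrophage markers 0.08 and 0.38, with 0 called on average in either list. Astrocytes coat the vessels with their endfeet, and their 8 markers had medians of -0.04 for WT and -0.19 for BDNF het-Met. Of these markers, 4 were called lower and 2 higher, with averages from -0.65 for the water channel Aqp4 to 0.26. Oligodendrocyte markers had medians of -0.07 and -0.32 (1 of 8 called lower), their precursors 0.01 and -0.08 (2 of 6 lower, 1 higher), and neurons 0.03 and 0.04 (2 of 8 higher). The part of these cell types in the vessel results was not tested, and their summed level in each group cannot be given without values per library.

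**Figure D4:**
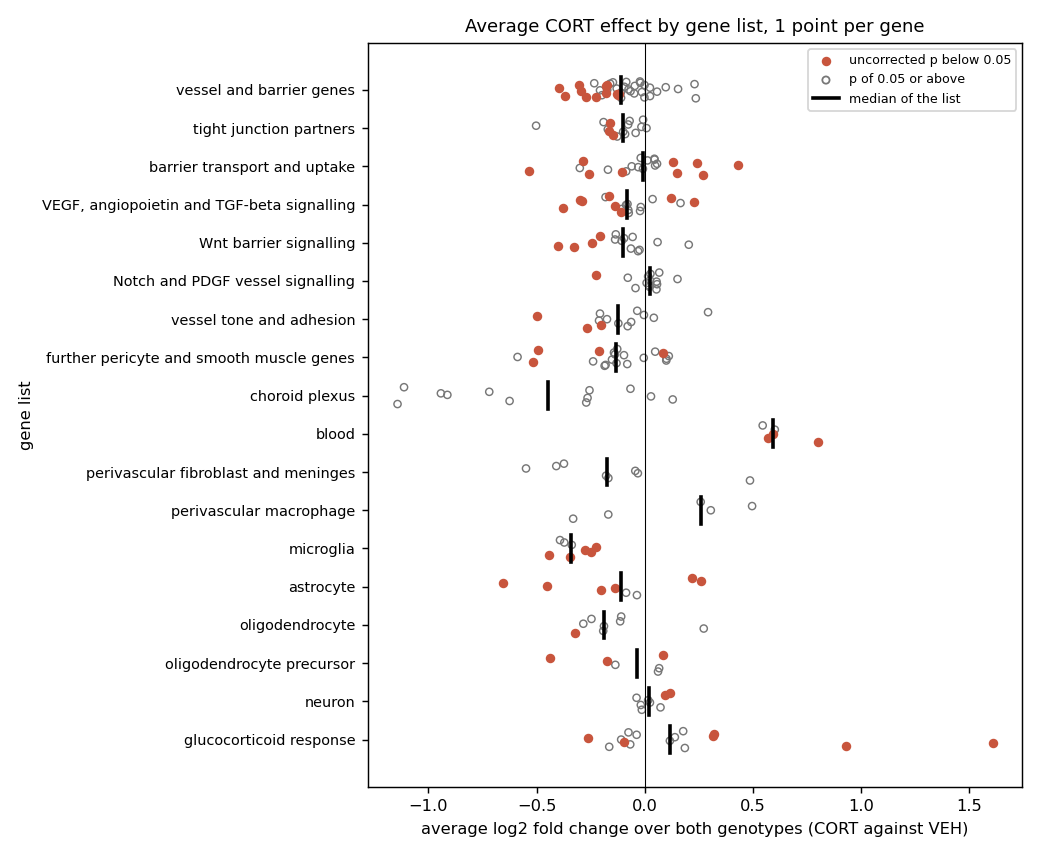
Average log2 fold change over both genotypes (x axis) for each gene of the vessel and barrier list, the pathway lists and the cell type marker lists (y axis), with filled points for uncorrected p below 0.05, open points for the rest and a black line at each median. The vessel and barrier genes have a median of -0.11 with filled points only left of 0, blood genes lie between 0.55 and 0.80, and choroid plexus genes spread from -1.14 to 0.13 with none filled.

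The plot of the gene lists sets these side by side. Of 15 genes listed as glucocorticoid response genes, 4 were called higher on average (Fkbp5, Plin4, Mt1 and Sult1a1, each with p below the threshold in both genotypes). The genes called lower were 2, Nfkbia and Per1. Across all genes, 7.17% were called higher and 6.18% lower. The list was chosen with earlier results of these data known, so its counts are no independent check. Plin4, a lipid droplet gene, was higher by 1.52 ± 0.40 and 1.70 ± 0.30, and Sult1a1, a sulfotransferase, by 0.75 ± 0.21 and 1.12 ± 0.18. Their averages were 1.61 and 0.93. Over the 15 genes the averages ran from -0.26 to 1.61 with a median of 0.12. Over the 39 vessel and barrier genes they ran from -0.40 to 0.24 with a median of -0.11. Sign aside, the median size of the average was 0.16 for the 15 genes and 0.13 for the 39.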

How the data were processed

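RNA-seq libraries of the vHPC were stranded, with 75-bp single-end reads and 35 to 40 M reads planned per library. The number of reads counted per library is not known from the files used here, so no depth is given per library. Low-quality reads were discarded and the rest were aligned by the authors with STAR to GRCm38 with Ensembl annotation, counted per gene with featureCounts and fitted with limma-voom. Not given in the sources used here: tool versions, any expression filter, strand setting and the handling of multi-mapping reads. The deposited log2 values are mean expression, the log2 fold change and its error; the deposited p-values are uncorrected, adjusted and joint p; the deposited scores are the moderated t and the joint F. These are the authors' own comparisons, used because the gene list is defined in them.

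The deposited fold change is VEH minus CORT, and its sign was turned. The SE printed is the log2 fold change over the moderated t. Mean expression and F were the same in both tables, so both comparisons come from 1 fit; it lists 7 residual degrees of freedom where 12 libraries in 4 groups leave 8, and what used the other is not given. The average and the difference of both CORT effects were computed from these values and tested two-sided against t at 10.9 total degrees of freedom, with Benjamini-Hochberg adjustment over 17564 genes, and the calculation was tested on simulated data. Replicates are libraries of separate pools per the labels. Gene positions and exon lengths are from GENCODE M21 (17551 genes matched), transcripts sharing at least 75 bases at 98% identity were found with blastn 2.17.0, and scripts used Python 3.11.15, pandas 2.3.3 and scipy 1.17.1. Upstream sequences are from RefSeq. The listed genes, pathway lists and markers were chosen with earlier results of these data known. Genes with an uncorrected p below 0.05 in any comparison and the 3 of highest mean expression per role are given in full; of each pathway list, genes called in both genotypes and the 2 of smallest average p, with further called genes named after their values were seen. One called gene of the tight junction list is not reported here. Alternatives were ordinary errors, centring within 5 expression classes, p below 0.01, a fold change above 1.3, mean expression above 0 log2 CPM, an assumed error correlation of 0.25 or -0.25, and the list without Cspg5. The last, and the fold change minimum for the average, were chosen after seeing the data.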

Additional observations from a re-analysis of the deposited data

Results flagged for a closer look

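Notch3 was the 1 of 39 listed genes called by a test of the difference between genotypes itself. That is 2.56% of the listed genes, near the 2.41% called among all genes. The log2 fold change in BDNF het-Met minus that in WT was -0.26 (-0.42 against -0.16, 95% interval -0.491 to -0.0255), past the uncorrected threshold, and the adjusted p over all genes was 0.9999. With an assumed error correlation of -0.25 between both effects it no longer passed.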

How the results depend on the processing

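No paired analysis was possible because the files used here hold no value per library, and for the same reason no library could be left out in turn. At p below 0.01, the genes called numbered 0 in WT, 2 in BDNF het-Met, 5 for the average, 0 for the difference and 2 for the joint test, where 0.569%, 3.59%, 3.95%, 0.211% and 1.56% of all genes were called in either direction. A fold change above 1.3 left 1 gene in WT, 3 in BDNF het-Met and, as an alternative chosen after seeing the data, 1 for the average. Ordinary in place of moderated errors gave 1 gene in WT, Erg, with 0 shared with the 3 called before, and 9 for the average, without Tie1, Tek and Slco1a4. For the difference, an assumed error correlation of 0.25 gave 2 genes (Notch3 and Slc16a1) and one of -0.25 gave 0; for the average they gave 8 (without Tek, Erg, Emcn and Slco1a4) and 16 genes, against 12, and 2 of the 16, Cldn5 and Flt1, were higher. Centring left 10 for the average, without Erg and Emcn. Shares over all genes were not computed for ordinary errors, assumed error correlations or centring, so these counts have no background beside them. An assumed correlation of -0.25 makes the error of the average smaller for every gene, listed or not. Of 253 alternative values for single genes, 0 changed direction. Only centring alters a fold change, so under the other alternatives the direction was fixed in advance and the count is no check. The wide errors of Angpt2, Acta2 and Vwf limit what could be detected in them, and depth per library is unknown.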
